A study of Cyanidioschyzon merolae with 75 samples.

Results

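The step from the end of 1 day of the course into the next was described in cultures of Cyanidioschyzon merolae strain 10D, a unicellular red alga whose growth and division had been set in step by light and dark. The step was seen at 2 places, from 24 to 26 h and from 48 to 50 h, and these were taken as 2 repeats of it. It was represented by 4 arrays, chosen by their labelled times and series, of the 75 in the data set. Each array compared amplified RNA of 1 sampling time, carrying Cy3, with a mixture of the course's samples, carrying Cy5, and 4576 genes were measured. The labels of the 4 arrays give the same strain and no treatment beyond the light and dark cycles, and differ in time. The sources name no lamp hours. The arrays hold the RNA of whole cultures, so fewer cells at a stage and less RNA per cell cannot be told apart.

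C. merolae is known for its simple cell plan: the plastid, the mitochondrion and the nucleus divide in a fixed order, and the cell then divides. In synchronised cultures, light and dark act on the timing of this order, and cells grow in the light before they divide. The reference table used here pairs locus tags with no gene names or functions, so genes are called by their tag.

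A value is the log2 of raw Cy3 over raw Cy5, minus the median of its array, averaged over the probes of a gene. It gives the level of a gene relative to the pool and to the typical gene on the array. The step of a gene is the difference of 2 such values. Series 1 and 2 are repeated readings of the same samples, and series 3, used here, equalled their mean for 100% of intensities at all 4 times. The steps of series 1 and 2 differed with an SD over genes of 0.12 at 24 to 26 h and 0.11 at 48 to 50 h. No replicate culture enters any value, and the spread between the 2 repeats of the step is the only error. Nothing in the labels says that the cycles came from separate cultures, so a p-value measures only that spread, which may be technical.

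The arrays were not equally bright. Median Cy5 intensity was 581 at 24 h and 12093 at 26 h, 20.8 times as high, whereas it was 4139 at 48 h and 4367 at 50 h, 1.06 times as high. The ratio also leaned on brightness. Over 10 bins of genes ordered by their Cy5 rank on the 4 arrays, the median change from 24 to 26 h went from 0.23 in the dimmest bin to -0.35 in the brightest. From 48 to 50 h it went the other way, from -0.33 to 0.34. After loess, a curve fitted to the ratio along brightness and taken off within each array, the medians of the bins lay between -0.05 and 0.16 in both steps. The main counts are therefore given after loess as well.

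**Figure D1:**
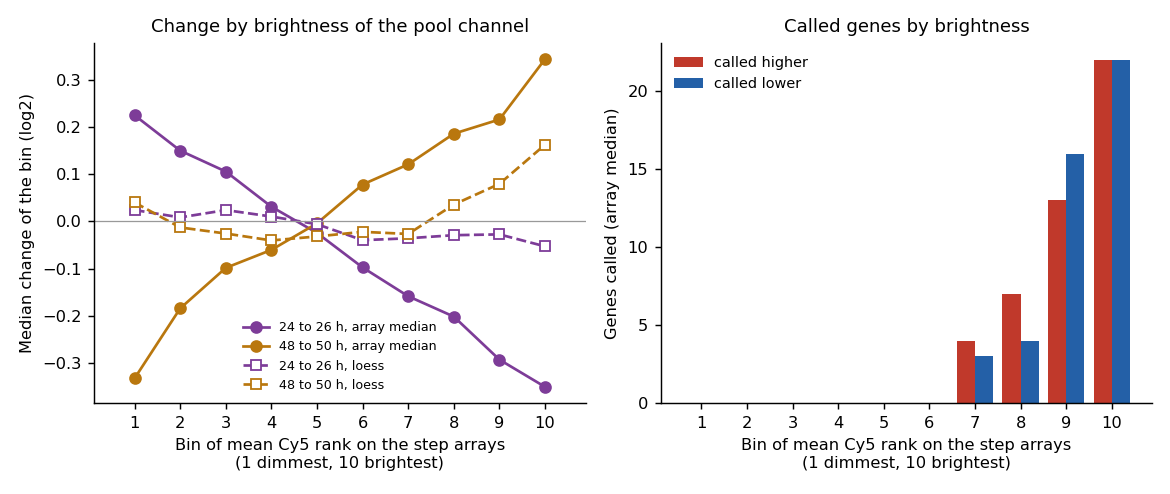
Left, median change (log2) of the genes in each of 10 bins of mean Cy5 rank, for the step 24 to 26 h and the step 48 to 50 h, with the array median taken off (filled) and after loess (open). Right, number of genes called higher or lower in each bin. The lines with the array median cross between the dim and the bright bins, those after loess stay near 0, and every called gene lies in bins 7 to 10.

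At the step 91 of the 4576 genes tested were called (1.99%), of which 46 rose (1.01%) and 45 fell (0.983%). The strongest rises were those of CMN235C, 4.49-fold on average over both repeats, CMN234C and CMR293C. The strongest falls were those of CMS487C, 4.08-fold on average, CML176C and CMS301C. The call asked for a Benjamini-Hochberg adjusted p under 0.05 in limma's moderated test of the mean of the 2 steps, a mean change of at least 1.5-fold, and the same sign in both. At an unadjusted p under 0.05 there were 333 genes. After loess 153 genes were called (3.34%), 89 higher and 64 lower (1.94% and 1.4%), and 45 of the 46 rises and 44 of the 45 falls were among them. The exceptions were CMK028C, with an adjusted p of 0.054 from limma after loess, and CMT271C, with 0.059. Both had a small change in 1 of the repeats, 0.15 at 24 to 26 h for CMK028C and -0.15 at 48 to 50 h for CMT271C.

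The limma test has a single residual degree of freedom per gene, and with the array median it estimated 1 SD of 0.34 for all genes. Every mean step therefore has the same standard error of 0.24, and its p follows from its size alone, not from how well the 2 repeats of that gene match. With the 4 arrays compared 2 against 2 and no pairing by cycle, limma called 0 genes, with 159 at an unadjusted p under 0.05.

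Counts by size alone use no test. At least 1.5-fold in both, 34 genes were higher (0.743%) and 58 lower (1.27%), and 18 genes (0.393%) were lower at 24 to 26 h and higher at 48 to 50 h. No gene was 1.5-fold higher in the first and lower in the second. After loess 59 genes were higher in both (1.29%), 48 were lower in both (1.05%) and 0 were opposite, and 31 of the 34 and 37 of the 58 were among them. At 2-fold in both, 8 genes were higher (0.175%) and 10 lower (0.219%).

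Over all 4576 genes the sign was the same in both repeats in 38.5%, with a Pearson correlation across genes of 0.09 and a Spearman correlation of -0.16. After loess the same sign was found in 58.7%, and the correlations were 0.49 and 0.32. Genes share arrays and brightness and are not independent replicates, so these numbers are a description.

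**Figure D2:**
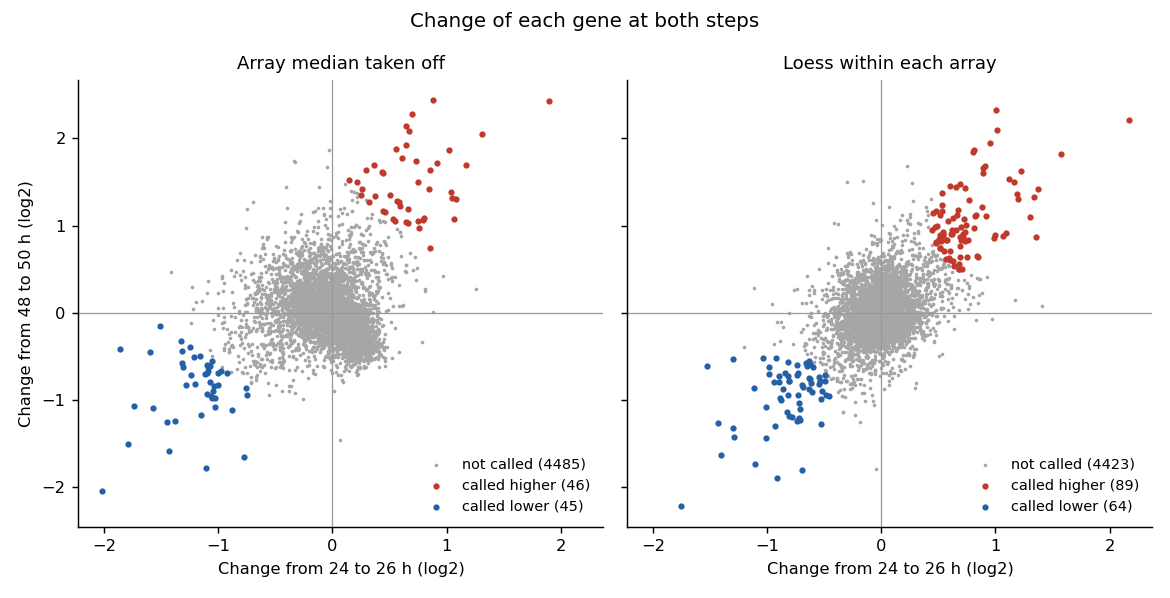
Change of each of the 4576 genes (log2) from 24 to 26 h (horizontal) and from 48 to 50 h (vertical), with the array median taken off (left) and after loess (right). Each point is a gene, and colour marks genes called higher (46 left, 89 right) or lower (45 left, 64 right). The cloud of uncalled genes slopes downward at the left and not at the right, while the called genes lie in the same corners in both panels.

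The balance of rises and falls was not the same in the 2 repeats. From 24 to 26 h 51 genes were at least 1.5-fold higher (1.11%) and 266 lower (5.81%). From 48 to 50 h 340 were higher (7.43%) and 122 lower (2.67%). After loess the numbers were 107 higher and 94 lower, and then 244 higher and 168 lower. Among the 46 genes that rose, 45 had the larger change from 48 to 50 h, with medians of 0.65 and 1.40. After loess 38 of the 46 did, with medians of 0.86 and 1.30. Among the 45 that fell, 9 had the larger change there, with medians of -1.10 and -0.82. After loess this order turned round, with the larger change there in 28 of the 45 and medians of -0.88 and -0.97.

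CMN235C gave the largest rise. It stood at -1.62 at 24 h and 0.28 at 26 h, and at -1.99 at 48 h and 0.44 at 50 h. Both values before the step were below both values after it. The mean step was 2.17 ± 0.24 (standard error, 2 steps), and the adjusted p from limma was 2.5e-15. Over series 1, series 2 and their mean, series 3, the change lay between 1.86 and 1.96 at 24 to 26 h. At 48 to 50 h it lay between 2.26 and 2.63. Over the 21 other times it was lowest at 18 h, with -3.79, and highest at 28 h, with 1.12.

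CMN234C carries the tag just before CMN235C and rose as well. It stood at -1.81 at 24 h and -0.50 at 26 h, then at -2.33 at 48 h and -0.28 at 50 h. The values before and after the step did not overlap, and the mean step was 1.68 ± 0.24, with an adjusted p of 7.07e-09 from limma. It was lowest at 42 h, with -3.85, and highest at 34 h, with 0.48. On the 24 h array both genes were among the brightest 1% in Cy5, at percentiles 99.65 and 99.63.

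CMR293C had unequal repeats. It went from -0.79 at 24 h to 0.09 at 26 h and from -2.12 at 48 h to 0.32 at 50 h. The change was 0.88 and then 2.44, the largest rise of any gene at 48 to 50 h, and the mean was 1.66 ± 0.24 with an adjusted p of 9.9e-09 from limma. CMQ142C was similar, with -0.89 and 0.13 at the first place and -2.19 and -0.32 at the second. Its lowest value over the other times was -4.31 at 14 h, and its mean step was 1.44 ± 0.24.

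CML050C was low again at the next sampling time of the first cycle. It went from -1.59 at 24 h to -0.42 at 26 h and stood at -1.39 at 28 h. At 46 h it was at -0.20, at 48 h at -2.14 and at 50 h at -0.45. The mean step was 1.43 ± 0.24 with an adjusted p of 1.77e-06 from limma, and both values after the step stayed below the typical gene of their arrays.

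CMQ270C stood at -0.60 and 0.48 at 24 and 26 h, and at -1.70 and -0.40 at 48 and 50 h. CMS035C stood at -0.63 and 0.41, and at -1.09 and 0.29. The changes were 1.09 and 1.30 for CMQ270C and 1.04 and 1.38 for CMS035C, and in both genes the values before and after the step did not overlap. CMS188C went from -0.73 to 0.32 and from -1.49 to -0.17, without overlap as well, and its lowest value of the other times was -2.43 at 42 h. CMR036C went from -0.91 to -0.06 and from -1.41 to 0.02, and it stood at -0.08 at 28 h.

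CMS429C had changes of 1.06 and 1.08 with the array median, and of 1.35 and 0.87 after loess. It stood at 0.15 at 24 h and 1.21 at 26 h, and at -0.27 at 48 h and 0.81 at 50 h. Of the 12 rises named here, CMS429C and CMJ305C were above the typical gene at 24 h. CMJ305C went from 0.43 to 1.34 and from -3.07 to -1.35. Its change was 0.92 and 1.72, yet its level at 24 h was above that at 50 h, so the values before and after the step overlap, as in no other of the 12. CML205C came close to overlapping, with -0.20 and 0.66 at the first place and -1.79 and -0.14 at the second.

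These 12 genes were the highest ranked by the smaller of their 2 changes, which for the last of them, CMR036C, was 0.85. The next in the ranking, CMN328C and CMQ224C, had 0.80 and 0.79 and were called too. Over the 12 the adjusted p from limma ran from 2.5e-15 to 0.00152, and after loess from 2.78e-04 to 0.0135, with mean steps of 1.11 to 2.19 after loess.

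The levels of all 46 genes that rose on the 4 arrays are a description, since the same values made the call. Both values before the step were below 0 in 40 of the 46 and both above in 0, against 19.4% and 19.4% of all genes. Their median was -0.61 at 24 h and 0.13 at 26 h, and -1.44 at 48 h and -0.05 at 50 h. After the step 16 genes were above 0 in both cycles and 11 below 0 in both, and the shares of all genes were not counted there. Both later values were above both earlier ones in 37 of the 46, and in 427 of all genes (9.33%), and the call itself favours such a count.

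**Figure D3:**
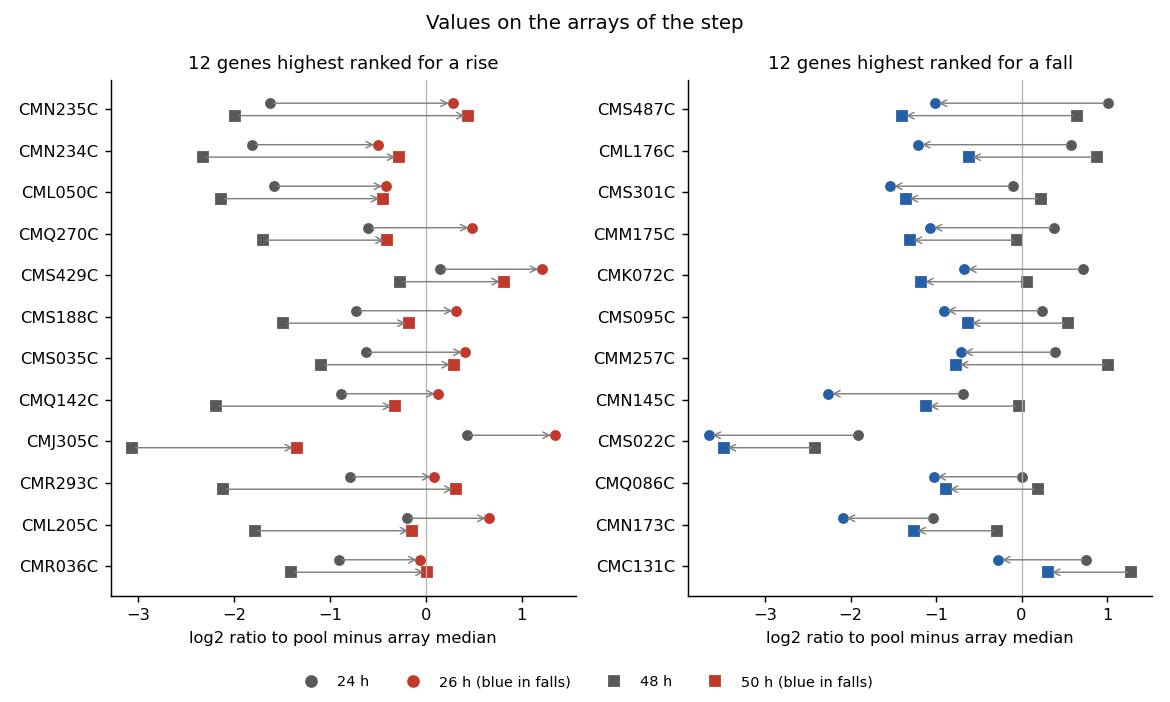
Level (log2 ratio to the pool minus the array median) on the 4 arrays for the 12 genes ranked highest for a rise (left) and for a fall (right). Circles are 24 and 26 h, squares 48 and 50 h, grey the value before the step and colour the value after it, and arrows join the values of a step. All arrows point right at the left and left at the right, and CMJ305C is the gene whose grey and coloured points overlap in range.

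CMS487C gave the largest fall. It stood at 1.01 at 24 h and -1.01 at 26 h, and at 0.65 at 48 h and -1.39 at 50 h. The 2 changes were -2.02 and -2.04. Over series 1, series 2 and their mean, series 3, the second lay between -2.06 and -2.01. The mean step was -2.03 ± 0.24 with an adjusted p of 1.72e-13 from limma. In Cy5 CMS487C was at percentiles 81.0 to 94.3 on the 4 arrays. In Cy3 it did not stay above the lowest 20% on all 4, so leaving out dim probes removed it. At 22 h it was at 0.02 and at 46 h at -0.69. With the array median its level just before the step was therefore above that of 2 h earlier in both cycles.

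With the array median CML176C was likewise higher at 24 and 48 h than at the times on either side. It was at -0.65 at 22 h, 0.58 at 24 h and -1.21 at 26 h, and at -1.21 at 46 h, 0.88 at 48 h and -0.62 at 50 h. The mean step was -1.64 ± 0.24, with an adjusted p of 1.2e-08 from limma. CMS301C went from -0.10 to -1.54 and from 0.23 to -1.35, with changes of -1.44 and -1.58. At 22 h and 46 h it was at -0.80 and -0.36, below its level of 2 h later in both cycles. Such a rise before the step was smaller after loess in the median of all genes called lower. From 22 to 24 h that median went from -0.09 to 0.62 with the array median and from 0.24 to 0.37 after loess. From 46 to 48 h it went from -0.58 to 0.31 and, after loess, from 0.29 to 0.60. Loess levels of the single genes at 22 and 46 h were not compared.

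The time before differed among other falls. CMM257C was at 0.42 at 22 h, 0.39 at 24 h and -0.71 at 26 h. In the second cycle it was at 0.18 at 46 h, 1.01 at 48 h and -0.77 at 50 h. It was highest over the other times at 42 h, with 1.46. CMK072C was at 0.31, 0.72 and -0.67 at 22, 24 and 26 h, and at 1.35, 0.06 and -1.17 at 46, 48 and 50 h, so that it was already lower at 48 h than at 46 h. CMC131C was at 0.60, 0.76 and -0.27, and at 0.19, 1.28 and 0.31. Of these 3, CMC131C alone was above the typical gene after the second repeat.

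CMS022C stood low on all 4 arrays. It fell from -1.91 to -3.66 and from -2.42 to -3.48, far below the typical gene throughout. Its highest value of the other times was 1.94 at 38 h. The mean step was -1.40 ± 0.24 with an adjusted p of 3.21e-06 from limma.

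CMN145C and CMN173C, both on chromosome 14 of assembly ASM9120v1, likewise fell from levels below the typical gene. CMN145C went from -0.68 to -2.26 and from -0.03 to -1.12, and CMN173C from -1.03 to -2.09 and from -0.29 to -1.26. In each, the level before the step in the second cycle was above that in the first, and the values before and after the step did not overlap. Both had their highest value of the other times at 16 h, 1.29 for CMN145C and 1.07 for CMN173C. CMN176C, 3 genes from CMN173C, was called as well, with changes of -1.12 and -0.70.

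CMM175C fell from 0.39 to -1.07 and from -0.05 to -1.30, and CMS095C from 0.24 to -0.91 and from 0.54 to -0.63. CMQ086C fell from 0.00 to -1.03 and from 0.19 to -0.88. In these 3 genes, too, the values before and after the step did not overlap. On the 24 h array CMM175C was near the middle of the Cy5 range, at percentile 54.4, and the other named falls were at percentiles 60.4 to 99.96.

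The 12 falls were the highest ranked by the smaller change, which for CMC131C was 0.97. The next, CMT283C and CMM250C, had 0.95 and 0.93 and were called too. The adjusted p from limma ran from 1.72e-13 to 0.004 over the 12, and after loess from 0.00114 to 0.0141, with mean steps of -1.99 to -0.97 after loess.

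The levels of the 45 genes that fell are likewise a description of values that made the call. Both values before the step were above 0 in 33 of the 45, against 19.4% of all genes. Both values after it were below 0 in 33 of the 45, and the share of all genes was not counted there. Their median was 0.62 at 24 h and -0.47 at 26 h, and 0.31 at 48 h and -0.62 at 50 h. Both later values were below both earlier ones in 43 of the 45, and in 588 of all genes (12.8%), a count that the call favours too.

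Other arrays around the step changed which genes were called. With 26 and 28 h averaged after the first step, 42 of the 46 rises and 37 of the 45 falls were called, among 66 and 42, and 27 of the 34 higher and 46 of the 58 lower genes were still 1.5-fold changed in both repeats. With 22 and 24 h averaged, and 46 and 48 h averaged, as the level before the step, 67 genes were 1.5-fold higher in both repeats and 16 lower. Of the 34 higher genes 27 were still among them, and of the 58 lower genes 13. limma called 0 genes in that setting, with 365 at an unadjusted p under 0.05. With 28 h in place of the bright 26 h array 40 of the 46 rises and 24 of the 45 falls were called among 105 and 34. With 22 h in place of the dim 24 h array 45 of the 46 and 29 of the 45 were called among 289 and 56.

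The step was then placed in the whole course. The median of the 46 genes that rose was between -0.17 and 0.22 from 2 to 10 h and between -0.45 and -1.07 from 12 to 22 h. It was between -0.30 and 0.24 from 26 to 36 h and between -0.81 and -1.73 from 38 to 48 h. It was lowest at 22 h in the first cycle, and at 46 h in the second with -1.73 against -1.44 at 48 h. After loess the low of the second cycle was at 48 h, with -1.24 against -0.97 at 46 h. The 45 genes that fell had a median between -0.51 and -0.23 from 2 to 10 h and between -0.10 and 0.19 from 12 to 22 h. At 24 h it was 0.62. In the second cycle it was 0.60 at 40 h, -0.58 at 46 h and 0.31 at 48 h. After loess the median at 46 h was 0.29 in place of -0.58, and that at 24 h was 0.37 in place of 0.62.

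**Figure D4:**
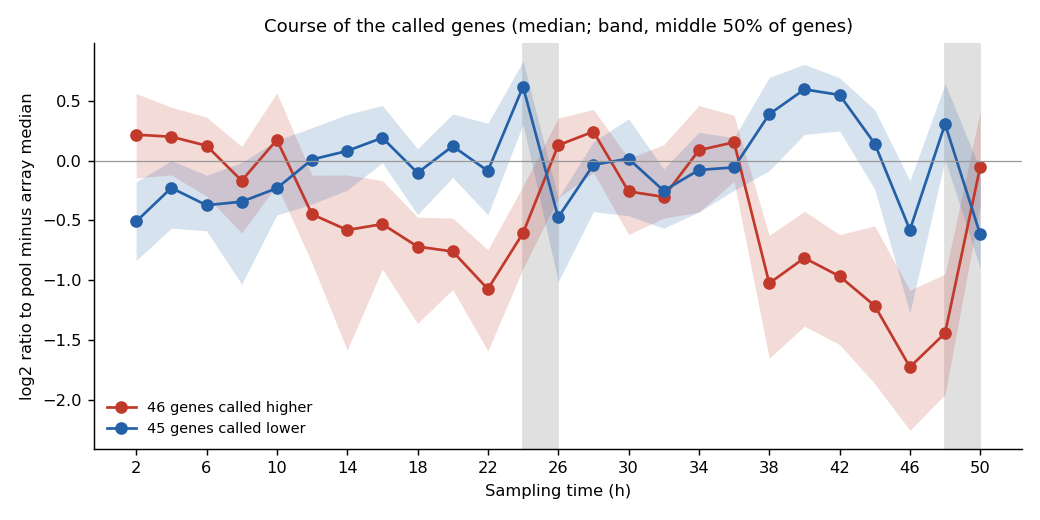
Median level (log2 ratio to the pool minus the array median) of the 46 genes called higher (red) and the 45 called lower (blue) at each of 25 sampling times, with bands for the middle 50% of genes. Grey bars mark 24 to 26 h and 48 to 50 h. Outside the bars the red line is below the blue one from 12 to 22 h and from 38 to 46 h, and above it from 2 to 10 h. Between these times it is above the blue line at 28, 34 and 36 h and below it at 30 and 32 h.

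Times that were not used for the step were then compared. The difference between 28 and 22 h spans the step of the first cycle with other arrays, and that between 2 h and the mean of 22 and 46 h compares the start of the course with the ends of both cycles. At 28 h 45 of the 46 genes that rose were above their level at 22 h, against 52.4% of all genes, with a median difference of 1.23 against 0.02. At 2 h 45 of the 46 were above the mean of 22 and 46 h, against 48.8% of all genes, with a median of 1.49. After loess the counts were 42, against 50.3% of all genes, and 45, against 46.2%, and the medians were 0.75 and 1.16. The 2 h array is itself bright, with a median Cy5 of 14416, whereas that of 28 h is dim, with 656.

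For the 45 genes that fell, the same comparisons depended on the scaling. With the array median 25 of the 45 were lower at 28 h than at 22 h, against 47.6% of all genes, and 25 were lower at 2 h, against 51.2%. After loess 39 were lower at 28 h, against 49.7% of all genes, and 40 at 2 h, against 53.8%. The medians went from -0.08 to -0.40 for 28 h and from -0.20 to -0.77 for 2 h.

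Over the other 21 times, 28 of the 46 genes that rose had their lowest value between 42 and 46 h (60.9%), against 26.8% of all genes. Their highest value lay between 2 and 8 h in 16 (34.8%), against 22.4% of all genes. It lay between 28 and 32 h in 10 and between 34 and 40 h in 10 (21.7% each), against 18.1% and 16.3%. Of the 45 genes that fell, 18 had their highest value between 34 and 40 h (40.0%), against 16.3% of all genes, and 16 their lowest between 2 and 8 h (35.6%), against 21.5%. After loess the lowest value lay between 42 and 46 h in 20 of the 46 (43.5%), against 24.1% of all genes. For the 45 falls the highest value then lay between 34 and 40 h in 8 (17.8%), against 18.1% of all genes, and between 42 and 46 h in 21 (46.7%), against 22.9%.

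The step was set beside the other steps of 2 h. Over the 24 steps of the course the SD over genes ran from 0.10 to 0.59, with a median of 0.34. From 24 to 26 h it was 0.32, the 14th largest, and from 48 to 50 h 0.39, the 5th largest. The step at 24 h was one of 12 that could be paired with the step 24 h later. Its correlation with the later step, 0.09, was the 8th highest of the 12, and the others ran from -0.09 to 0.36. After loess it was 0.49, the highest of the 12, and the others ran from -0.34 to 0.23. The count of genes changed at least 1.5-fold the same way in both was 92, and 0 to 178 in the other pairs. After loess it was 107, and 0 to 72 in the others. The differences between pairs have no replicate and were not tested.

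The step just before, from 22 to 24 h with 46 to 48 h, gave 178 genes higher in both and 0 lower with the array median, and 8 and 3 after loess. It ends on the same arrays on which the step into the new cycle begins.

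**Figure D5:**
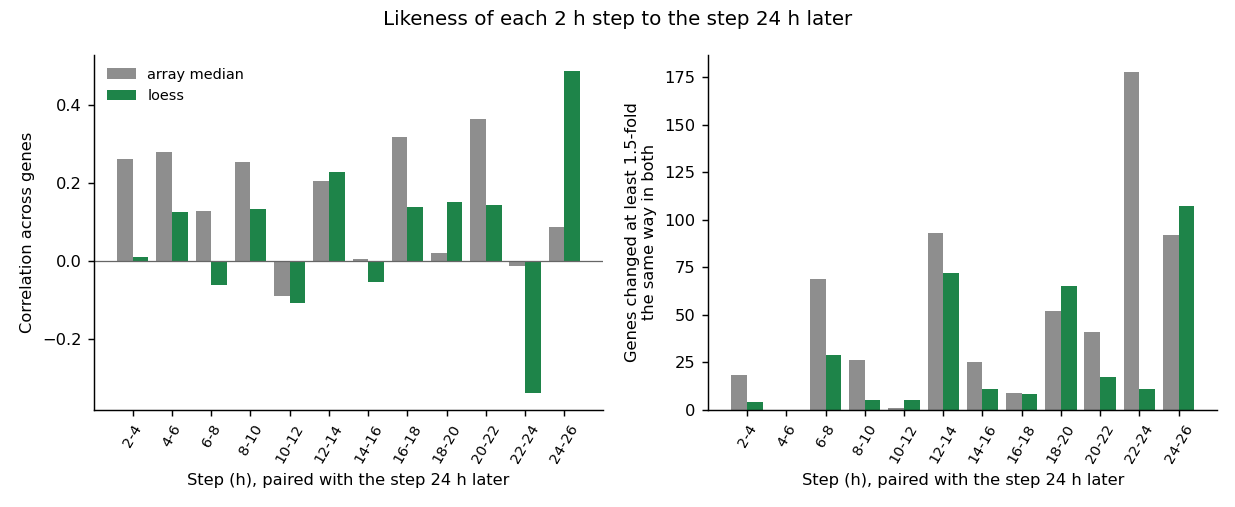
For each of 12 steps of 2 h, the correlation across genes with the step 24 h later (left) and the number of genes changed at least 1.5-fold the same way in both (right), with the array median taken off (grey) and after loess (green). The bars at 24-26 are 0.09 and 0.49 at the left and 92 and 107 at the right.

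The called genes were bright ones in Cy5. Of the 10 bins by Cy5 rank, the 6 dimmest held 0 of the 91 called genes and the brightest held 44, with 22 rises and 22 falls. After loess the brightest bin held 66 of the 153 and the 4 dimmest held 0. With probes in the lowest 20% of either channel on any of the 4 arrays left out, 2493 genes stayed, of which 85 were among the 91 called. limma then called 4 of these 85. The array medians were taken over all probes before this filter, so a gene with 1 probe that stayed kept its value by construction. The mean steps of the named genes that stayed were therefore unchanged, 2.17 for CMN235C in both settings. The 84 genes left that had changed at least 1.5-fold in both repeats had to do so again. limma's estimate there no longer gave all genes the same SD, with prior degrees of freedom of 9.22 against infinite with all probes. The part of brightness in the calls was not tested.

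Called genes were found on 17 of the 20 chromosomes. On chromosomes 1, 7 and 16 there were 0 calls among 100, 161 and 257 genes. Of 14 pairs of called genes within 5 genes of each other in the reference order, 8 moved the same way. Pairs of other genes were not counted. Among 3 pairs of direct neighbours, CMK071C and CMK072C both fell, while CMJ281C rose and CMJ282C fell, and CML050C rose and CML049C fell. CMN235C and another called rise were not matched in the reference table. They are not counted by chromosome or in these pairs. The 10 genes with a second probe had 0 calls, so no called value is an average of probes.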

How the data were processed

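The deposited files hold, per the file headers, raw intensity in each channel, Cy3 after scaling, a ratio made from it and its log2. Amplification started from an oligo(dT) primer, per the labels' protocols. The sources name no scanner, background handling or software. The authors' deposited log2 column of 48 h in series 3 repeated that of 46 h for 100% of probes within 1e-06, so the series table gave that alternative. The 4586 probes (4576 genes, of which 4565 matched assembly ASM9120v1) were read in Python 3.11.15, and ratios were fitted with limma 3.58.1 in R 4.3.3, whose loess span was 0.3. limma's intercept was tested on 2 differences per gene and checked on simulated data. Named genes are the 12 highest ranked for a rise and the 12 for a fall by the smaller of 2 same-sign steps, and the 3 highest ranked of each opposite kind. The 25 keyword lists planned found 0 members, since no functions are paired with tags, so no list is reported. Members and lists were chosen with earlier results of these data known. Alternatives were other normalisations, backgrounds, filters, readings, pairings, times and thresholds.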

Additional observations from a re-analysis of the deposited data

Results flagged for a closer look

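Genes whose change had opposite signs at 24 to 26 h and at 48 to 50 h were picked out, 3 of each kind with the largest smaller change. The difference between the 2 places was not tested, since each place holds 1 sample before and 1 after the step. CMJ096C had a change of -0.76 from 24 to 26 h and of 0.98 from 48 to 50 h. CMQ301C had -0.75 and 1.20, and CMH226C had -0.69 and 1.27. All 3 were bright, at Cy5 percentiles of 95.2 or more on all 4 arrays except CMQ301C, which was at 94.4 at 50 h. After loess they had -0.47 and 0.74, -0.38 and 1.02, and -0.42 and 1.03, with the signs still opposite. Under other settings CMJ096C lost its opposite signs, with -0.80 and -0.50 when arrays were scaled to the same spread, with 0.77 and 1.32 when times before the step were averaged, and with 2.29 and 0.98 when 22 h replaced 24 h. CMH226C lost them in that last setting, with 0.68 and 1.27, and CMQ301C kept them in 14 of 14 settings. CMJ096C stood at 0.71 at 24 h and at -2.39 at 48 h, so its levels before the step differed more than the changes did.

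The other kind was seen in dim genes. CMJ024C had 0.53 and -0.52, CMF045C 0.46 and -0.52, and CMR409C 0.46 and -0.60. Their Cy5 percentiles on the 4 arrays were 0.153 to 14.7, and the dimmest bin of genes had medians of 0.23 and -0.33. After loess CMJ024C had 0.29 and 0.11, CMF045C 0.18 and -0.04, and CMR409C 0.27 and -0.12.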

How the results depend on the processing

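Called genes numbered 91, and 153 with loess, 236 with arrays scaled to the same spread (63 higher, 173 lower), 24 with normexp (9, 15), 139 with 28 h in place of 26 h and 345 with 22 h in place of 24 h, and 42 at 2-fold. They numbered 4 with dim probes left out (207 at an unadjusted p under 0.05), 0 with no cycle term (159) and 0 with averaged times before the step (365). The authors' log2 values gave 97, and 47 with no array median taken off. In the fit of all 12 arrays with the replicate block 194 were called (92, 102), but the series are repeated readings of 1 sample, so this does not pair cultures. Genes changed 1.5-fold in both repeats numbered 92, and 251 with normexp (117, 134), 221 with 22 h in place of 24 h (188, 33), 18 at 2-fold, and 317 (51, 266) to 462 (340, 122) with either step left out, where no test is possible. Other settings gave 82 to 113, though not always with the same genes. The spread of the log2 ratio (scaled median absolute deviation) was 0.11 at 26 h and 0.48 at 48 h. With arrays scaled to the same spread the count was 113, and 19 of the 34 higher and 29 of the 58 lower genes were among them. Of the called genes, 29 of the 46 rises and 41 of the 45 falls were kept in that setting. The correlation of the repeats was 0.49 with loess. In 335 fits of the 24 named rises and falls, 76 lost the call and the mean step changed sign in 0. Leaving out dim probes or the cycle term keeps the mean step as it was, so its sign could not change there. Series 1, series 2 and the fit of all 12 arrays reread the same samples. With arrays scaled to the same spread CMJ305C had a mean step of 1.06 and an adjusted p of 0.0284 from limma. It lost the call there because its 2 steps no longer had the same sign. CMJ096C turned round, to a second step 1.32 smaller than the first (-1.32), with 22 h in place of 24 h. The cause of these shifts was not tested. No alternative was run for the gene lists, which have 0 members. The 28 h, 22 h and uncentred settings, and loess for the paired 2 h steps and for the other times, were chosen after seeing the data.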
